A study of Homo sapiens with 2 samples.

Results

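Replication licensing genes were followed in MCF10A cells, a non-tumour human breast epithelial line that depends on epidermal growth factor (EGF) to proliferate. The 10 genes were taken by name, as a pathway, from 16387 genes counted in both libraries. They are the 6 subunits of the replicative helicase ring (MCM2, MCM3, MCM4, MCM5, MCM6 and MCM7), the helicase cofactor MCM10, the loading factors CDC6 and CDT1, and geminin (GMNN). Transcripts of single cells were counted in unstimulated cells (0 h) and in cells given EGF for 15, 20 or 30 h. In 2 further arms EGF was followed, from 15 h on, by an inhibitor of MEK or of PI3K, and cells were taken at 20 and 30 h. The 8 conditions of a biological replicate were tagged, pooled and sequenced as 1 library, and there were 2 such libraries. The sources used here name neither the inhibitor compounds nor their doses, and no arm received both.

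Licensing loads the helicase onto origins before S phase, so that each origin can fire once in a cycle. The origin recognition complex and the ATPase CDC6 sit at the origin, CDT1 brings in the ring of MCM2 to MCM7, and geminin binds CDT1 to block further loading once S phase has begun. MCM10 acts later, when CDC45 and the GINS complex join the ring and it starts to unwind DNA. Genes of this machinery are textbook targets of E2F factors, which are released when growth factor signalling through MEK and PI3K drives cells out of quiescence.

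The libraries held 2616 and 2221 cells with medians of 12259 and 12332 unique molecular identifiers (UMIs) per cell, and shared 0 cell barcodes. Summed by library and condition, depth ran from 213216 UMIs in the 29 unstimulated cells of library 2 to 8508948 UMIs. The median depth of a cell ran from 7024 UMIs in unstimulated cells to 16000 with EGF at 30 h, and the median mitochondrial share from 4.64% to 7.85%, the latter in unstimulated cells of library 2. The part of either in the results was not tested beyond the thinning given with the values per cell. Keratins and other markers of the line were all counted, at 14742 to 31870 counts per 1000000 UMIs (CPM) in sum. That sum came mainly from KRT5, KRT14, KRT17 and KRT6A. Some other markers were low, with EPCAM at 0.698 to 12.7 CPM and TP63 at 8.21 to 23.5 CPM. Fibroblast markers summed to 6.96 to 96.3 CPM with LUM, COL1A2, COL3A1 and PDGFRA not counted, immune markers to 7.52 to 37.5 CPM with PTPRC and CD3E not counted, and endothelial markers to 0 to 4.89 CPM. Levels below are CPM after trimmed-mean (TMM) scaling, given as library 1 and then library 2, and means carry the SD over the 2 libraries. Differences are log2 fold changes from edgeR's quasi-likelihood test with the library as a block, with the standard error (SE) and a p adjusted over 11147 genes, called below 0.05.

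All 10 genes are protein coding and lie, in GENCODE v29 on GRCh38, on chromosomes 2 (MCM6), 3 (MCM2), 6 (MCM3 and GMNN), 7 (MCM7), 8 (MCM4), 10 (MCM10), 16 (CDT1), 17 (CDC6) and 22 (MCM5). TPRA1 overlaps MCM2 on the other strand and AP4M1 overlaps MCM7 on the other strand. The microRNA genes MIR25, MIR93 and MIR106B overlap MCM7 on the same strand. No strand setting of the counting was found in the labels. Whether reads from the overlaps on the other strand were kept apart is not known here. RefSeq start-site windows, from 250 bases before to 50 bases after the start on GRCh38.p14, were at hand for 8 of the genes, in 11 windows. They were searched on both strands for 8 words of the E2F type: TTTCCCGC, TTTCCCGG, TTTCGCGC, TTTCGCGG, TTTGCCGC, TTTGCCGG, TTTGGCGC and TTTGGCGG. Such a word was present in 9 of the 11 windows, and in at least 1 window of each of the 8 genes, against 6.19% of 35114 RefSeq windows of the same length. A match describes letters only and is no evidence that a factor binds there.

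The stretches below are a choice from these matches, 1 for each of the 8 genes, read 5′ to 3′ on the gene's strand with the matching words in capitals. Further matches of MCM3, MCM7 and CDC6 are not printed. They are shown because these 8 genes include both those that moved together and the exceptions, CDT1 and GMNN. MCM6 is given with its whole 250 bases before the start site, which hold 2 copies of the same run, TTTGGCGCGAAA.
MCM6 (chr2:135876444-135876693, minus strand): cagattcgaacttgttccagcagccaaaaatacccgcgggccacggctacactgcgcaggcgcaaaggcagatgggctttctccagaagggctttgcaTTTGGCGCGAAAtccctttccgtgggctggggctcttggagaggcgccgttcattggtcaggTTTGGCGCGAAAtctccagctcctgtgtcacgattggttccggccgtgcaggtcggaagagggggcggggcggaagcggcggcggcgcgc
MCM2 (chr3:127598402-127598431, plus strand): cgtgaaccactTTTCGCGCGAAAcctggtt
MCM3 (chr6:52284728-52284757, minus strand): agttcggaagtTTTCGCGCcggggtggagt
MCM7 (chr7:100101388-100101417, minus strand): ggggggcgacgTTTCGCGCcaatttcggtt
MCM10 (chr10:13161552-13161581, plus strand): ccggttggaatTTTGGCGGgttcagctgtg
CDC6 (chr17:40287840-40287869, plus strand): cgaggccgggcTTTGGCGGgaggtgggaac
CDT1 (chr16:88803743-88803772, plus strand): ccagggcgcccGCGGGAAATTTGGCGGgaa
GMNN (chr6:24775322-24775351, plus strand): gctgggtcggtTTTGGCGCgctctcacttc
The CDT1 stretch holds 2 words in opposite directions that touch, and the GMNN word lies before the second of 2 annotated starts, the first having none. CCAAT, searched on both strands, was in a window of 6 of the 8 genes (MCM3, MCM6, MCM7, MCM10, CDC6 and GMNN) and in 34.6% of all windows.

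Whether EGF raised the licensing transcripts was asked first, by comparing EGF at 15 h with unstimulated cells. All 10 genes rose, against 14.1% of all genes tested called higher. The median log2 fold change of the 10 genes was 1.83, against 0.02 over all genes tested. MCM3, a ring subunit, stood at 12.6 and 17.7 CPM at 0 h and at 58.7 and 65.3 CPM at 15 h, which is a difference of 2.15 on the log2 scale (SE 0.28, adjusted p = 2.35e-08). MCM7 stood at 30.4 and 48.6 CPM at 0 h and at 69.9 and 119 CPM at 15 h (1.24, SE 0.25, adjusted p = 0.000109). In neither gene did the libraries of the 2 conditions overlap, and the other 4 ring genes rose by 1.34 (MCM4), 1.73 (MCM5), 1.94 (MCM2) and 2.92 (MCM6) on the log2 scale.

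Several of these genes were near the limit of detection before EGF. MCM10 had 1 UMI in all unstimulated cells of both libraries and 84 UMIs at 15 h. Per total UMI that is a ratio of 20.5, with an exact 95% interval for counting error alone of 3.58 to 819. MCM6 had 5 UMIs at 0 h and 176 at 15 h, a ratio of 8.59 (3.61 to 26.8), and MCM2 had 4 and 71, a ratio of 4.33 (1.62 to 16.3). The sizes of their rises are therefore known only within wide limits.

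Of the loading factors, CDC6 went from 2.53 and 13.3 CPM at 0 h to 16.5 and 28.4 CPM at 15 h (2.08, SE 0.51, adjusted p = 0.00139). Its values at 0 h rest on 3 and 3 UMIs, so the size of its rise is also known only within wide limits. CDT1 went from 5.90 and 22.1 CPM, on 7 and 5 UMIs, to 18.3 and 28.4 CPM (1.21, SE 0.41, adjusted p = 0.0216). CDT1 levels of the 2 conditions overlapped across libraries, and its difference was 1.55 in library 1 and 0.36 in library 2. GMNN, the inhibitor, rose least, from 70.0 and 102 CPM to 143 and 111 CPM (0.84, SE 0.17, adjusted p = 8.69e-05), by 1.03 in library 1 and 0.12 in library 2. The CDT1 call was lost without the library block (adjusted p = 0.0906) and with DESeq2 (0.0504), which also lost MCM2 (0.0532). Without library 1 the median over the 10 genes was 1.21, so the size of the rise rests in part on that library, with 175 unstimulated cells against 29 in library 2.

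From 15 to 20 h of EGF 9 of the 10 genes rose further, against 3.44% of all genes called higher, and the median was 0.84. MCM10 rose most, to 29.5 and 34.8 CPM from 11.9 and 19.9 CPM (1.22, SE 0.19, adjusted p = 7.99e-06). MCM7 reached 152 and 159.8 CPM (0.89, SE 0.13, adjusted p = 1.85e-06) and MCM3 102 and 87.6 CPM (0.70, SE 0.12, adjusted p = 3.56e-05). Levels at 20 h lay above those at 15 h in both libraries for each of the 6 ring genes and MCM10. GMNN changed by 0.34 (SE 0.11, adjusted p = 0.0439), from 143 and 111 to 180.1 and 153 CPM. Its call was lost without the filter on low counts (adjusted p = 0.0608) and without the cells of highest UMI count (0.13). CDT1 differed by 0.53 (95% interval 0.17 to 0.90, adjusted p = 0.0801) and was not called. DESeq2 called 6 of the 9 (not MCM6, CDC6 or GMNN). Without the library block 2 of the 9 calls were made (MCM5 and MCM10), and without library 1, with 488 cells at 15 h against 64 in library 2, the median was 0.44.

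Between 20 and 30 h of EGF 8 genes fell, against 3.27% of all genes called lower, and the median was -0.84. MCM5 fell most, from 46.4 and 48.3 CPM to 21.4 and 18.1 CPM (-1.30, SE 0.15, adjusted p = 9.83e-10). MCM3 went from 102 and 87.6 CPM to 51.7 and 40.9 CPM (-1.06, SE 0.11, adjusted p = 1.84e-10), and the other 4 ring genes fell by 0.59 (MCM7), 0.75 (MCM4), 0.82 (MCM2) and 1.10 (MCM6) on the log2 scale. The ring genes thus peaked at 20 h among the EGF times, and the 20 h libraries lay above the 30 h libraries for each of them. MCM10 fell by 1.02 and CDC6 by 0.87 (SE 0.16 for both, adjusted p = 6.13e-06 and 0.000132). GMNN held 182 and 162 CPM at 30 h (0.04, 95% interval -0.15 to 0.23, adjusted p = 0.871), and for CDT1 the difference was -0.35 (-0.67 to -0.04, adjusted p = 0.184). Without the library block MCM2, MCM7 and CDC6 were not called and 5 calls were left.

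**Figure D1:**
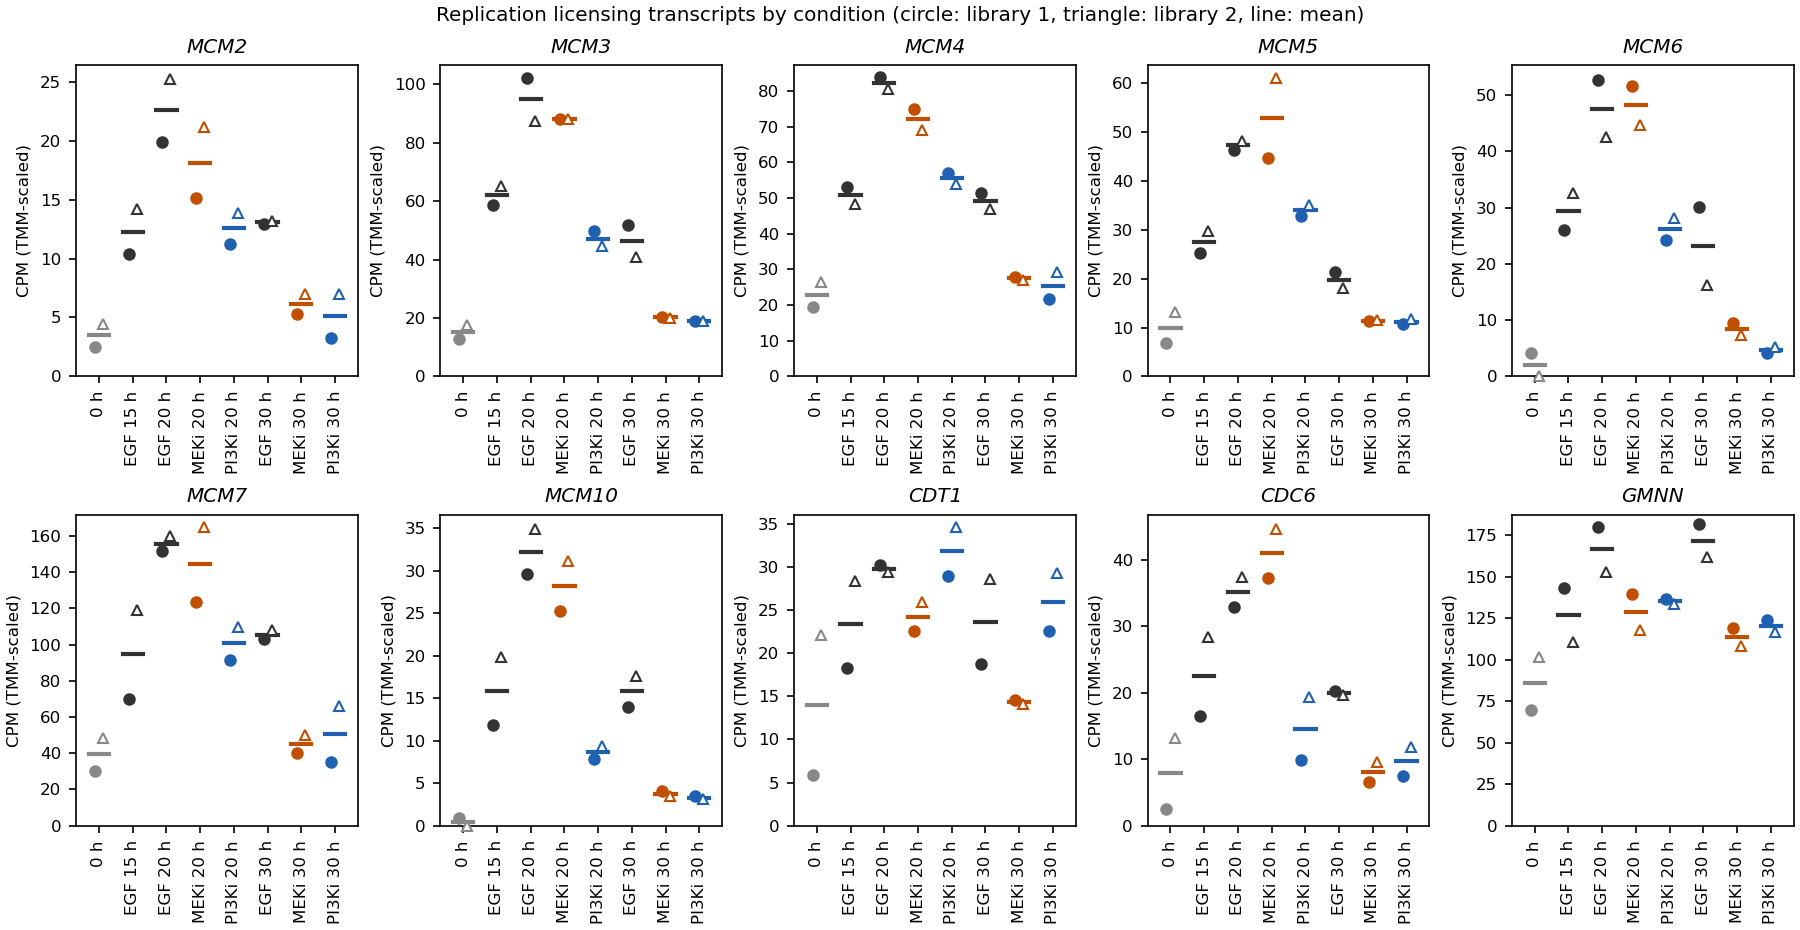
Level of each licensing gene (CPM after TMM scaling, linear axes from 0) in the 8 conditions, with library 1 as circles, library 2 as triangles and their mean as a line. MCM2 to MCM7 and MCM10 are highest at 20 h with EGF or the MEK inhibitor, at 20 h the PI3K inhibitor points lie lower, and CDT1 and GMNN depart from this pattern.

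Genes that work beside the licensing factors were counted from lists of 6 origin recognition subunits, 16 helicase activation and firing factors, 13 control factors and 8 E2F factors. At 15 h of EGF, when 14.1% of all genes were called higher and 13.9% lower, 4 of the 6 origin recognition genes rose and 0 fell. ORC6 went from 4.22 and 17.7 to 23.4 and 38.3 CPM (1.99, adjusted p = 0.000185). ORC1, the subunit whose level cycles, had 1 UMI at 0 h and 41 at 15 h, a ratio per total UMI of 10.0 with an interval for counting error of 1.70 to 405 (adjusted p = 0.0165). Of the firing factors 6 rose and 0 fell, among them GINS2, a part of the active helicase, with 3 UMIs at 0 h and 242 at 15 h, a ratio of 19.7 (6.65 to 96.1, adjusted p = 8.81e-08). Of the control factors 4 rose and 1 fell. DTL, which targets CDT1 for destruction in S phase, had 3 UMIs at 0 h and 174 at 15 h, a ratio of 14.2 (4.76 to 69.3, adjusted p = 2.64e-06). Of the E2F factors 3 rose, among them E2F1, with 3 UMIs at 0 h and 185 at 15 h, a ratio of 15.0 (5.07 to 73.6, adjusted p = 2.81e-07). ORC1, GINS2, DTL and E2F1 were thus nearly undetected before EGF, and the upper limits of their ratios are loose. DESeq2 called fewer genes of each list higher: 1 origin recognition gene, 4 firing factors, 3 control factors and 2 E2F factors. Of all genes it called 22.8% in either direction.

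From 15 to 20 h 1 origin recognition gene, 7 firing factors, 6 control factors and 3 E2F factors rose, and 0 genes of these lists fell, against 3.44% of all genes called higher. DESeq2 called 1, 4, 3 and 1 of them higher, in the same order, and 3.05% of all genes in either direction. It gave an adjusted p for 13 of the 16 firing factors and 7 of the 8 E2F factors. CDC45, which joins the ring in the active helicase, went from 10.7 and 17.0 to 34.4 and 35.5 CPM (1.56, adjusted p = 1.89e-07). FBXO5, an inhibitor of the ubiquitin ligase that removes geminin, went from 7.81 and 17.0 to 36.9 and 33.6 CPM (1.97, adjusted p = 1.48e-08). From 20 to 30 h edgeR called 0 of the 6 origin recognition genes (1 at an unadjusted p under 0.05, and 0 with DESeq2), and 1 firing factor rose and 3 fell (1 and 2 with DESeq2), against 4.51% of all genes called higher and 3.27% lower. Here DESeq2 gave an adjusted p for 5 of the 6 origin recognition genes and 11 of the 16 firing factors. Of all genes it called 4.31% in either direction. Cyclin genes then moved apart: CCNE2 fell by 2.11 on the log2 scale (adjusted p = 8.25e-11) and CCNA2 rose by 1.53 (adjusted p = 3.24e-12), to 79.7 and 95.2 CPM. E2F1 fell by 1.98 (adjusted p = 4.16e-13), to 14.2 and 8.96 CPM.

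The MEK inhibitor was compared with EGF alone at 20 h, after 5 h of inhibitor. GMNN fell, and 1 of the 10 genes was thus called, against 7.15% of all genes called lower. It stood at 139.8 and 118 CPM with the inhibitor and 180.1 and 153 CPM without (-0.38, SE 0.10, adjusted p = 0.00777). It was lower in both libraries, and its call was lost without the library block (adjusted p = 0.274). MCM3 was at 88.2 and 88.1 CPM with the inhibitor and at 102 and 87.6 CPM without (-0.11, 95% interval -0.33 to 0.11, adjusted p = 0.598). CDC6 was at 37.3 and 44.7 CPM against 32.9 and 37.4 CPM (0.19, interval -0.12 to 0.51, adjusted p = 0.483). Differences of the ring genes ran from -0.32 (MCM2) to 0.16 (MCM5), and the intervals of all 9 uncalled genes held 0. Of the 16 firing factors edgeR called 0, with 2 at an unadjusted p under 0.05 and 0 with DESeq2. ORC3 rose (0.53, adjusted p = 0.0328), and 2 control factors (CCNE1 and MCMBP) and 3 E2F factors (E2F3, E2F4 and E2F5) fell, when 4.8% of all genes were called higher and 7.15% lower. With DESeq2 the calls of ORC3 and of both control factors were lost and 2 E2F factors were called, when 7.1% of all genes were called in either direction. E2F4, an E2F factor bound mainly in quiescent cells, stood at 19.0 and 20.8 CPM against 29.5 and 31.3 CPM (-0.63, adjusted p = 0.00812).

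With the PI3K inhibitor at 20 h 9 of the 10 genes fell, against 11.9% of all genes called lower, and the median was -0.74. MCM10 fell furthest, to 7.87 and 9.41 CPM against 29.5 and 34.8 CPM with EGF alone, a 3.72-fold difference (-1.90, SE 0.21, adjusted p = 1.07e-09). CDC6 stood at 9.84 and 19.3 CPM against 32.9 and 37.4 CPM (-1.37, SE 0.20, adjusted p = 6.04e-07). MCM3 stood at 49.8 and 44.6 CPM against 102 and 87.6 CPM (-1.01, SE 0.12, adjusted p = 9.24e-09). The 2 groups of libraries did not overlap for these 3 genes, nor for the other ring genes, which fell by 0.48 (MCM5) to 0.92 (MCM6) on the log2 scale.

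CDT1 was the exception, at 28.95 and 34.7 CPM with the PI3K inhibitor against 30.2 and 29.4 CPM (0.05, interval -0.28 to 0.39, adjusted p = 0.861); its sign turned with scaling to library totals (-0.09). GMNN fell by 0.31 (SE 0.10, adjusted p = 0.021), to 137 and 134 CPM. Without the library block MCM2, MCM5, MCM7 and GMNN were not called, and DESeq2 did not call MCM5 (adjusted p = 0.0655). Of the firing factors 8 fell and 0 rose, with GINS1 at 4.78 and 3.96 CPM against 19.3 and 20.1 CPM (-2.12, adjusted p = 6.05e-08). Control factors fell in 7 and rose in 2 of 13 cases, CCNE2 falling to 8.15 and 13.9 CPM from 30.2 and 42.8 CPM (-1.76, adjusted p = 1.16e-07). Of the E2F factors 4 fell, and of the origin recognition genes 1 (ORC6, -0.53, adjusted p = 0.00568). These counts stand against 11.9% of all genes called lower and 11.4% higher. DESeq2 called 5 firing, 6 control and 3 E2F factors and 1 origin recognition gene lower, and 16.1% of all genes in either direction.

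The inhibitors were then compared with each other at 20 h, since both comparisons above share the cells with EGF alone. The direct contrast called 7 of the 10 genes higher with the MEK than with the PI3K inhibitor, against 11.2% of all genes. CDC6 differed by 1.57 (SE 0.21, adjusted p = 5.21e-08) and MCM10 by 1.70 (SE 0.23, adjusted p = 7.56e-08). MCM3, MCM5, MCM6 and MCM7 differed by 0.51 to 0.93, and MCM4 by 0.37 (adjusted p = 0.0378). The MCM4 call was lost without the library block (0.141), with DESeq2 (0.0755) and without the cells of highest UMI count (0.0733), and that of MCM7 without the block (0.226). The 3 genes not called were MCM2 (0.52, interval 0.05 to 0.99), CDT1 (-0.40, -0.77 to -0.02) and GMNN (-0.07, -0.29 to 0.15), with adjusted p of 0.104, 0.127 and 0.703.

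At 30 h, after 15 h of inhibitor, the MEK inhibitor lowered all 10 genes, against 19% of all genes called lower, with a median of -1.12. MCM10 stood at 4.02 and 3.48 CPM against 13.98 and 17.6 CPM with EGF alone (-2.15, SE 0.23, adjusted p = 7.46e-11). MCM7 stood at 40.2 and 50.0 CPM against 103 and 108 CPM (-1.23, SE 0.13, adjusted p = 2.04e-11). MCM6 stood at 9.54 and 7.41 CPM against 30.1 and 16.2 CPM (-1.41, SE 0.20, adjusted p = 1.45e-07). The libraries did not overlap for these genes, and the remaining ring genes fell by 0.77 (MCM5) to 1.17 (MCM3) on the log2 scale.

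Among the loaders under the MEK inhibitor, CDC6 fell to 6.53 and 9.61 CPM from 20.3 and 19.6 CPM (-1.25, SE 0.20, adjusted p = 1.17e-06). CDT1 fell to 14.6 and 14.1 CPM from 18.7 and 28.6 CPM (-0.78, SE 0.17, adjusted p = 0.00018), by 0.35 in library 1 and 0.99 in library 2. GMNN fell to 119 and 108 CPM from 182 and 162 CPM (-0.59, SE 0.09, adjusted p = 1.18e-06). All 10 calls also stood without the library block, with DESeq2 and with library totals. Beyond the 10 genes, MCM8, a relative of the ring genes, fell under both inhibitors at 30 h (-0.98 with MEK and -0.96 with PI3K inhibition, adjusted p = 5.4e-05 and 0.000109). It was also called lower under both at 20 h, but not with DESeq2. Of 2 such relatives tested, MCM8 was the 1 called each time. In the surrounding lists the MEK inhibitor at 30 h lowered 4 origin recognition genes, 11 firing factors, 7 control factors and 5 E2F factors. Of the control factors 1 rose, when 19% of all genes were called lower and 18.9% higher. In these lists DESeq2 called 3, 10, 5 and 4 genes lower, in the same order, and it called 28.2% of all genes in either direction. CLSPN, a checkpoint mediator at the fork, stood at 13.3 and 9.96 CPM against 36.1 and 39.7 CPM (-1.79, adjusted p = 2.29e-13), and CDC45 at 12.8 and 11.005 against 40.4 and 34.5 CPM (-1.68, adjusted p = 1.2e-11).

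The PI3K inhibitor at 30 h lowered 9 genes, against 20% of all genes called lower, with a median of -1.02. MCM6 stood at 4.23 and 5.20 CPM against 30.1 and 16.2 CPM with EGF alone, a 4.51-fold difference (-2.17, SE 0.24, adjusted p = 1.02e-10). MCM10 stood at 3.48 and 3.09 CPM against 13.98 and 17.6 CPM (-2.30, SE 0.25, adjusted p = 7.7e-11). CDC6 stood at 7.46 and 11.9 CPM against 20.3 and 19.6 CPM (-0.99, SE 0.20, adjusted p = 6.58e-05). In each of these genes both libraries with the inhibitor lay below both without it, as they did for the other 5 ring genes, which fell by 0.79 (MCM5) to 1.27 (MCM2 and MCM3) on the log2 scale.

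CDT1 again was not called, at 22.6 and 29.3 CPM against 18.7 and 28.6 CPM (0.12, interval -0.20 to 0.43, adjusted p = 0.586); its sign turned with library totals (-0.12). GMNN fell to 124 and 117 CPM (-0.51, SE 0.10, adjusted p = 1.91e-05). Of the firing factors 15 of 16 fell, the largest falls being those of GINS1 and TICRR (both -1.96). Of the control factors 7 fell and 0 rose, CCNA2 falling to 7.96 and 18.5 CPM from 79.7 and 95.2 CPM (-2.68, adjusted p = 6.61e-20). ORC6 fell to 9.45 and 14.6 CPM from 38.8 and 47.9 CPM (-1.82), in a list with 3 of 6 lower, and 5 of 8 E2F factors fell. These counts stand against 20% of all genes called lower and 2201 of 11147 called higher. DESeq2 called 13 firing factors, 7 control factors, 2 origin recognition genes and 5 E2F factors lower, and 30.4% of all genes in either direction.

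**Figure D2:**
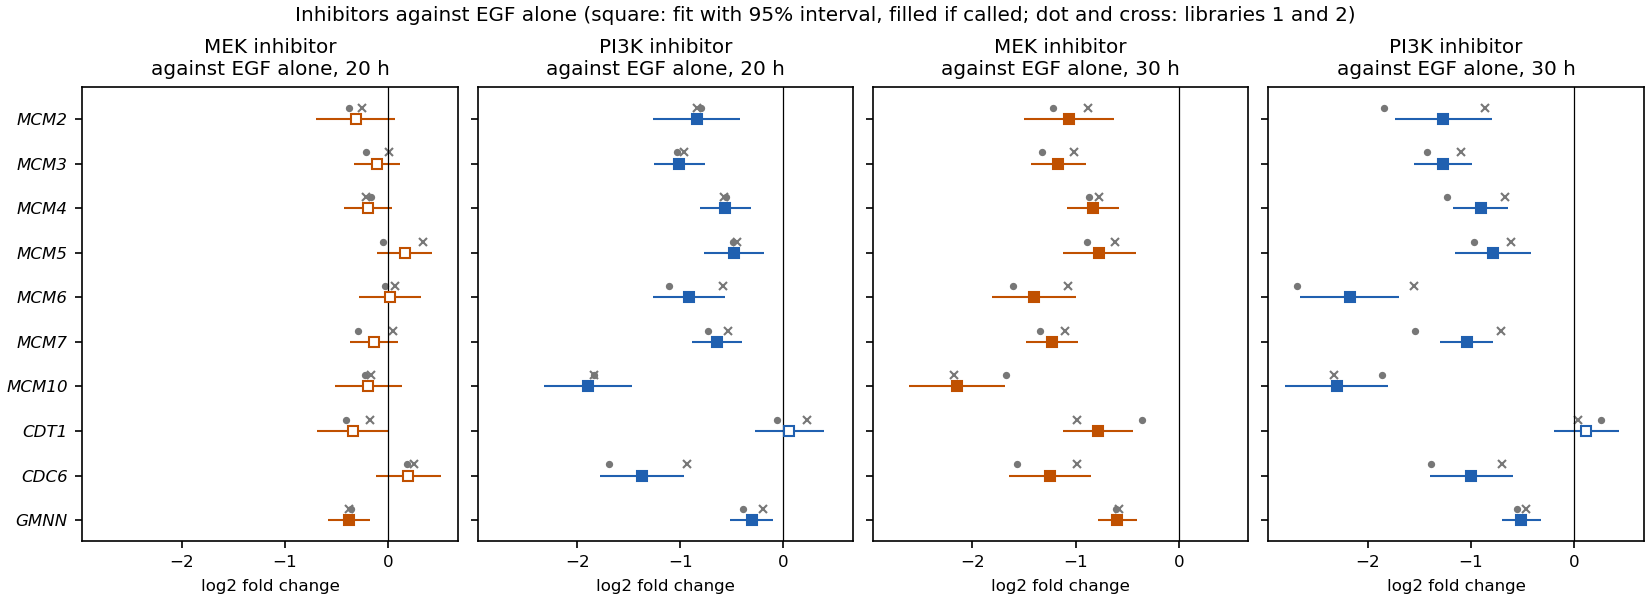
Log2 fold change of each licensing gene with an inhibitor against EGF alone at the same time. Squares are the fitted values with 95% intervals, filled where called, and dots and crosses are libraries 1 and 2. The MEK panel at 20 h has only GMNN filled, the MEK panel at 30 h all 10, and both PI3K panels all but CDT1.

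Compared directly at 30 h, the inhibitors differed in 2 of the 10 genes, against 41.6% of all genes called in either direction. CDT1 was lower with the MEK inhibitor, at 14.6 and 14.1 CPM against 22.6 and 29.3 CPM with the PI3K inhibitor (-0.90, SE 0.17, adjusted p = 1.22e-05). It was lower in both libraries and under every alternative run. MCM6 was higher with the MEK inhibitor (0.77, SE 0.28, adjusted p = 0.0223), a call lost without the library block (0.101), with DESeq2 (0.0561) and without the cells of highest UMI count (0.0848). For the other 8 genes the differences ran from -0.26 (CDC6, interval -0.71 to 0.20) to 0.20 (MCM2, -0.32 to 0.72). Among the control factors, CCNA2 (2.58, adjusted p = 7.8e-20), CDK2 (1.74, adjusted p = 1.17e-06) and FBXO5 (1.32, adjusted p = 3.19e-07) were higher with the MEK inhibitor. Of the 16 firing factors 5 were called higher (4 with DESeq2), against 21.2% of all genes.

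Whether an inhibitor acted on these genes differently at the 2 times was tested as an interaction. The MEK effect was lower at 30 than at 20 h in 7 genes, against 2.66% of all genes called lower. These were MCM3 (-1.06, SE 0.17, adjusted p = 2.33e-05), MCM4, MCM5, MCM6, MCM7, MCM10 (-1.95, SE 0.29, adjusted p = 3.37e-06) and CDC6 (-1.44, SE 0.25, adjusted p = 9.6e-05). MCM2 (-0.75, adjusted p = 0.132), CDT1 (-0.44, 0.339) and GMNN (-0.22, 0.444) were not called. Without the library block the calls of MCM3 and MCM10 were left. The PI3K effect was lower at 30 h in MCM6 alone (-1.26, SE 0.31, adjusted p = 0.00654), against 3.25% of all genes called lower, and that call was lost without the block (0.249).

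Within the MEK arm 9 genes fell from 20 to 30 h, against 9.29% of all genes called lower, with a median of -1.90. CDC6 went from 37.3 and 44.7 to 6.53 and 9.61 CPM, a 4.96-fold fall (-2.31, SE 0.19, adjusted p = 3.07e-14), and MCM3 from 88.2 and 88.1 to 20.3 and 20.0 CPM (-2.12, SE 0.13, adjusted p = 7.8e-19). GMNN differed by -0.17 (interval -0.38 to 0.03, adjusted p = 0.249). Within the PI3K arm 7 genes fell, against 5.6% called lower: the 6 ring genes, by 0.98 (MCM7) to 2.36 (MCM6) on the log2 scale, and MCM10 by 1.43. CDC6 (-0.49, interval -0.99 to 0.01), CDT1 (-0.29, -0.63 to 0.05) and GMNN (-0.16, -0.37 to 0.05) were not called. Without the library block the calls of CDT1 in the MEK arm (adjusted p = 0.088) and of MCM2 and MCM7 in the PI3K arm (0.0744 and 0.0754) were lost, and with library totals GMNN was called lower in the MEK arm (-0.28, adjusted p = 0.0426).

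A sum over cells cannot tell fewer cells with a transcript from less transcript per cell, so the 6 ring genes were also read cell by cell. With EGF at 20 h the median cell held 4.71 ring UMIs per 10000 UMIs in library 1 and 4.82 in library 2, and 10.96% and 6.44% of cells held no ring UMI. At 30 h with EGF the medians were 2.08 and 2.46. Under MEK inhibition they were 3.19 and 4.93 at 20 h and 0.630 and 0.972 at 30 h, when 44.5% and 29.1% of cells held no ring UMI. With the PI3K inhibitor they were 1.77 and 2.19 at 20 h and 0 and 1.05 at 30 h, when 53.5% and 33.9% held none. Unstimulated cells had medians of 0 and 1.21, and 69.1% and 27.6% of them held no ring UMI. Shares without a UMI move with depth. Cells were therefore also thinned to 6500 UMIs, leaving out shallower cells, 12 to 53 in each condition of a library. The median was 4.62 in both libraries with EGF at 20 h and 1.54 in both at 30 h. At 30 h it was 0 and 1.54 under MEK inhibition and 0 in both libraries under PI3K inhibition, and 1.54 per 10000 is a single UMI at that depth.

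**Figure D3:**
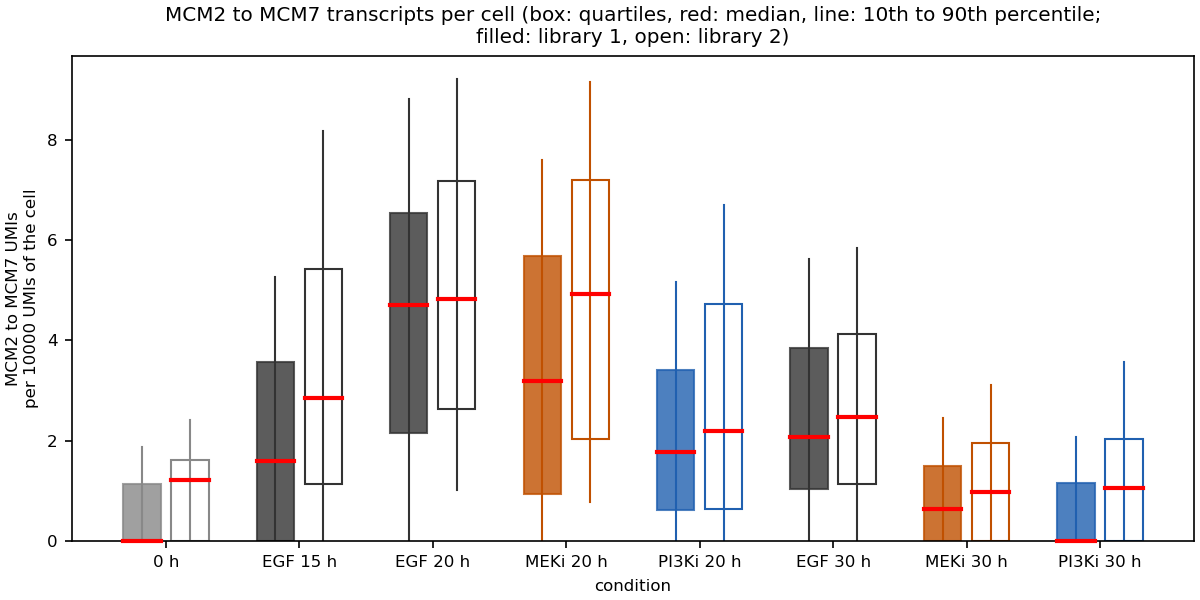
UMIs of MCM2 to MCM7 per 10000 UMIs of the cell, by condition, for library 1 (filled) and library 2 (open). Boxes span the quartiles, red lines are medians and thin lines run from the 10th to the 90th percentile over cells. The boxes are highest with EGF at 20 h and, in library 2, with the MEK inhibitor at 20 h, and both inhibitor boxes at 30 h lie near the unstimulated ones.

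Cells were next divided by 34 S phase genes and 54 G2/M genes, none of them a licensing gene. A cell was G2/M-high in the upper tertile of its library for G2/M transcripts, S-high if otherwise in the upper tertile for S transcripts, and low if in neither. These are ranges and not cell types, 11.7% and 16.7% of cells lay within 10% of a limit, and values within them are descriptions with no test. The ranges also differ between libraries: with EGF at 20 h 248 of 438 cells were G2/M-high in library 1 and 43 of 233 in library 2. Over all conditions the ring sum was 100.1 and 128 CPM in low cells against 439 and 545 CPM in S-high cells. The S phase genes include RFC2, HELLS and PCNA, which are among the genes most like the ring over the sums (below). The high ring sum of S-high cells is therefore no separate finding. In G2/M-high cells it was 418 and 239 CPM, near the S-high value in library 1 and far below it in library 2. GMNN spread less, from 91.1 and 91.2 CPM in low cells to 172 and 175 CPM in S-high and 196 and 166 CPM in G2/M-high cells.

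Low cells made up 22.0% and 11.3% of cells with EGF at 30 h. Their share was 65.0% and 39.0% under MEK inhibition and 84.3% and 88.1% under PI3K inhibition. Within the ranges, under the MEK inhibitor at 30 h, 8 of the 10 genes were lower than with EGF alone in both libraries in low cells. In G2/M-high cells 8 were lower. In low cells CDT1 was higher in both libraries and MCM10 had 0 UMIs in library 1 in either condition, and many genes there rest on under 10 UMIs a library. With upper quartiles in place of tertiles the counts were 7 and 8. The share of all genes lower within a range was not counted, here or for the PI3K inhibitor below. Class values also had no TMM scaling. Over all cells at 30 h, library totals moved the median of all genes to -0.16 with MEK and -0.22 with PI3K inhibition. The part of such a general shift in these counts was not tested. GMNN in low cells was at 71.3 and 63.2 CPM against 127 and 115 CPM, and the ring sum in G2/M-high cells was 181 and 153 CPM against 299 and 272 CPM. The libraries of the 2 conditions did not overlap in either case. At 20 h 8 genes were also lower in both libraries in low cells under the MEK inhibitor (9 with quartiles), and 0 were higher. The ring sum there was 120 and 188 CPM against 164 and 250 CPM, so the libraries of the 2 conditions overlapped. In S-high cells at 20 h 2 genes were lower and 3 higher in both libraries. In G2/M-high cells 5 were lower and 1 higher (2 and 2 with quartiles).

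Under the PI3K inhibitor at 30 h, 8 genes were also lower in both libraries in G2/M-high cells. The ring sum there was 210.2 and 202 CPM against 299 and 272 CPM. That range held 58 and 33 cells. With quartiles it held under 10 cells in a library, so this count has no such alternative. In low cells 3 genes were lower in both libraries, 6 differed in direction between libraries, and CDT1 was higher in both. The ring sum in low cells was 52.6 and 118 CPM against 102 and 93.1 CPM with EGF alone. With quartiles, 7 genes were lower there in both libraries and 2 differed in direction. CDT1 in G2/M-high cells was at 71.7 and 39.9 CPM with the PI3K inhibitor, 22.8 and 31.1 CPM with EGF alone and 25.9 and 17.8 CPM with the MEK inhibitor. In low cells it was at 8.20 and 23.7 CPM with the PI3K inhibitor, while the values for EGF alone rest on 1 and 3 UMIs.

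**Figure D4:**
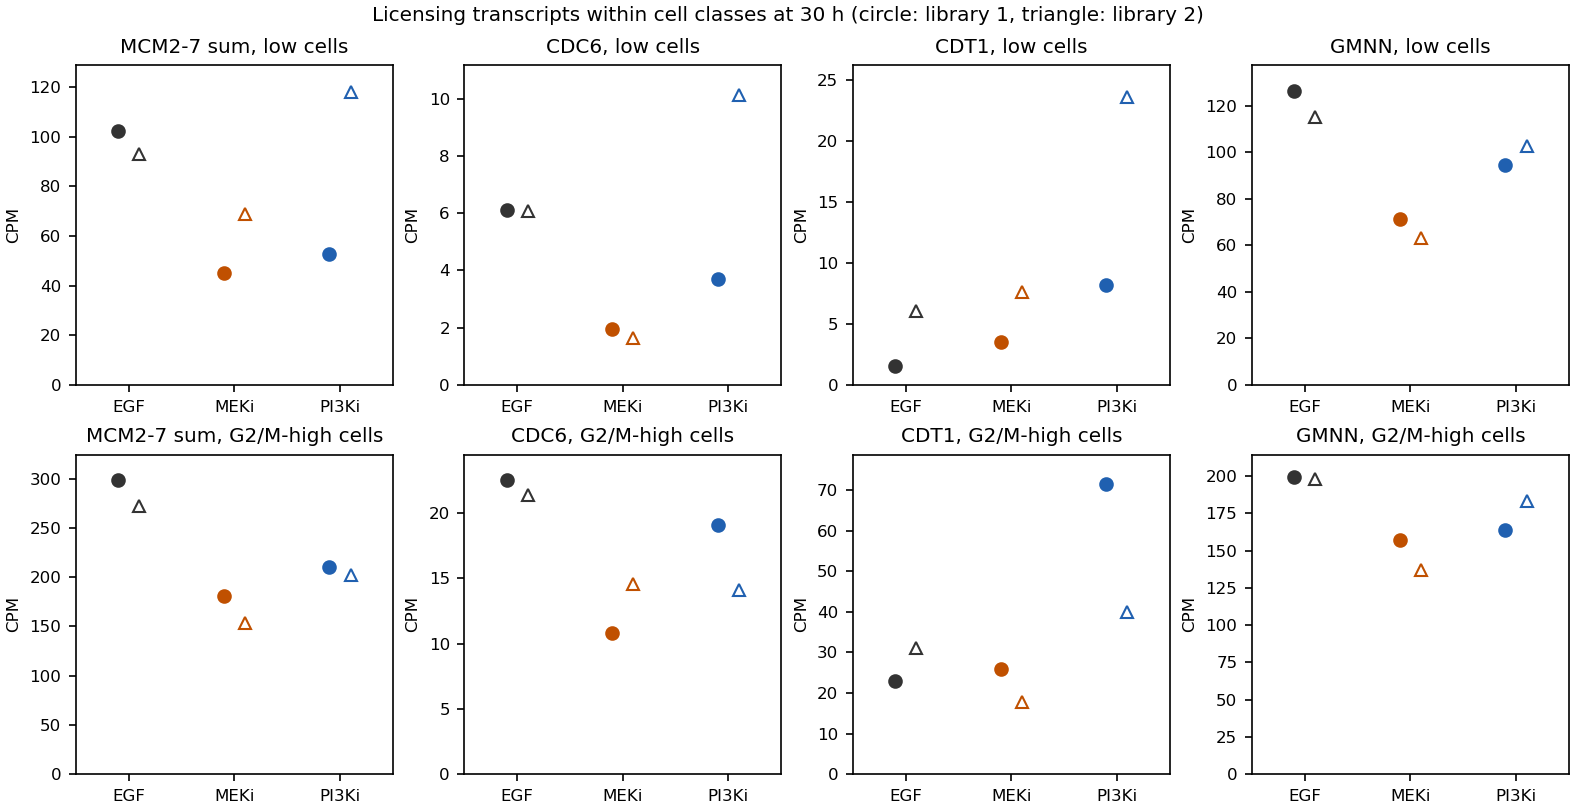
Ring sum, CDC6, CDT1 and GMNN (CPM of summed counts, linear axes from 0) at 30 h within low cells (top) and G2/M-high cells (bottom), with library 1 as circles and library 2 as triangles. Under MEK inhibition ring sum, CDC6 and GMNN lie below their EGF values in both ranges, and CDT1 is highest with the PI3K inhibitor.

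The members' patterns over the 16 sums were compared after each library's mean was taken out, as a description, since the sums share libraries. The 15 pairs of ring genes had Pearson r of 0.82 to 0.98, with a median of 0.96. MCM10 had r of 0.83 to 0.96 with the ring genes and CDC6 0.74 to 0.94, while GMNN had 0.60 to 0.77 and CDT1 0.48 to 0.67. Outside the 10 genes, those most like the mean of the ring, among 4699 genes searched, were RFC2 (0.97), BRI3BP (0.97), HELLS (0.96), RFC4 (0.96) and PCNA (0.95). RFC2 and RFC4 are subunits of the clamp loader that places PCNA, the sliding clamp, on DNA. Among the genes most like GMNN were CDCA4 (0.93), PRELID1 (0.92), YWHAB (0.91) and SUB1 (0.91).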

How the data were processed

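The authors deposited UMI counts per gene symbol and cell for 2 libraries, with no normalisation. The submitters' processing notes name Cell Ranger 3.0.2, Seurat and GRCh38. Seurat version, annotation release, strand setting, cell filter, tag-call rule: not given in the sources used here. Conditions were taken from the deposited tag annotation. The deposited tag tables call 4848 of 8641 and 2478 of 6161 barcodes doublets. No counted cell was one of them. Pairs of same-tag cells would go unnoticed.

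The 16 sums (library by condition) were fitted with edgeR 4.0.16 (filterByExpr, TMM, quasi-likelihood F test, limma 3.58.1, R 4.3.3) with the library as a block. Adjusted p is Benjamini-Hochberg over 11147 genes. Residual and prior degrees of freedom were 7 and 43.3, and the common biological coefficient of variation was 0.0604. Per-library log2 differences used a prior count of 2. The labels give each library as 1 biological replicate. With 2 against 2 an exact permutation test that ignores the pairing by library cannot go below p = 0.333. A test that kept the pairing would have fewer arrangements still. Conditions of a library were pooled in 1 tube. Over 4706 genes with at least 20 CPM their deviations correlated in all 28 pairs of conditions (r 0.281 to 0.677, median 0.588). The code was tested on simulated counts.

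The 10 genes are the pathway's members, and they and all lists were chosen with earlier results of these data known. All 10 passed the filter on low counts. From each list up to 3 called genes with the largest differences were named. Some list genes (CDC45, GINS2, DTL, CCNE2, CLSPN, TIPIN and E2F8) also set the S-high range, and MCMDC2 was not used. Class values are CPM of summed counts with no TMM scaling. Start-site windows and sequences are from RefSeq. Alternatives were no block, DESeq2 1.42.0, library totals, no filter, omission of the 10% of cells with most UMIs, of unstimulated sums and of each library, upper quartiles for the ranges and thinned cells. Some genes of the marker and likeness lists are not reported here.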

Additional observations from a re-analysis of the deposited data

Results flagged for a closer look

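The effect of the MEK inhibitor differed between 20 and 30 h in 7 licensing genes by the interaction test of edgeR. The 30 h effect was lower by -1.06 for MCM3, -0.63 for MCM4, -0.93 for MCM5, -1.42 for MCM6, -1.09 for MCM7, -1.95 for MCM10 and -1.44 for CDC6 (log2 scale). Both libraries gave the same sign for each of the 7. The effect of the PI3K inhibitor differed between these times for MCM6, by -1.26, again with the same sign in both libraries. These calls were fitted on the same 2 libraries, so the shared signs are a description only.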

How the results depend on the processing

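No called difference changed direction: over 130 gene comparisons, 89 of them called, 0 signs of called values turned under any alternative fit, and 89 of 89 kept their sign in either library alone. The calls were made on these same 2 libraries, so the shared signs are no separate support. Without the library term 28 calls were lost, with DESeq2 8 of 88, without the cells of highest UMI count 3, without the filter 1, without the unstimulated sums 0 of 79, and with library totals 0, while 1 was gained. With no replicate block the calls fell to 2 for 20 against 15 h of EGF, 5 for 30 against 20 h, 0 for the MEK and 5 for the PI3K inhibitor at 20 h, 1 for the inhibitors against each other at 30 h, 2 for the MEK interaction and 0 for the PI3K interaction. The share of all genes called, in either direction, fell too without the block. In the same order it went from 5.1% to 0.789%, 7.79% to 1.48%, 11.9% to 3.07%, 23.4% to 7.54%, 41.6% to 24.2%, 5.58% to 0.323% and 5.65% to 0.0538%. The inhibitors against each other at 30 h also gave 1 call with DESeq2 and 1 without the cells of highest UMI count. Of all genes 31.8% and 37.2% were then called. With library totals the median was -0.89 for the PI3K inhibitor at 20 h, -2.004 within the MEK arm and -1.12 for the MEK interaction, which was -1.10 without the cells of highest UMI count. The cause of these shifts was not tested.

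Leaving out 1 library leaves 1 sum per condition, hence a difference with no test and no count of calls. The medians then ran from 1.21 to 1.83 for EGF at 15 h, 0.44 to 0.89 for 20 against 15 h, -0.76 to -0.58 for the PI3K inhibitor at 20 h, 0.43 to 0.62 for the inhibitors against each other at 20 h, -1.91 to -1.77 within the MEK arm and -0.99 to -0.94 for the MEK interaction. Library totals moved the median of all genes to 0.21 for EGF at 15 h, -0.14 for the PI3K inhibitor at 20 h, -0.16 and -0.22 for the MEK and PI3K inhibitors at 30 h, and -0.10 for the MEK interaction. The share of called genes that were higher then went from 50.3% to 66.2% (EGF at 15 h), 67.4% to 79.2% (20 against 15 h), 40.2% to 29.4% and 48.9% to 26.8% (MEK and PI3K at 20 h), 49.9% to 29.3% and 49.7% to 25.6% (the same at 30 h), 51.8% to 65% (against each other at 20 h), 56.3% to 37% and 49.5% to 32.2% (30 against 20 h) and 52.3% to 25.6% and 42.5% to 24.8% (interactions). With 29 to 616 cells per sum, genes near 0 in unstimulated cells have wide intervals.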
